A study of Mus musculus with 6 samples.

Results

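The regulators described here are 10 genes, Sox9, Lhx2, Nfatc1, Tcf7l1, Lgr5, Lgr6, Cd34, Runx1, Barx2 and Tbx1, which mark or control stem cells of the hair follicle and its outer root sheath. They were chosen by symbol, and all 10 of 10 listed genes were found among the 15644 genes named on the array. Skin was dissected from 3 wild type mice and from 3 mice whose genotype label reads Hoxc13 knockout Hoxc13tm1Mrc, all labelled male, C57BL/6 and, in their titles, 5 dpn. The labels give no zygosity and no pooling, and the 3 samples within a group are described as independent. RNA was hybridised to Affymetrix arrays and read as log2 values, so that a difference of 1 is a 2-fold change. The comparison asks whether these regulators differ in skin when Hoxc13, a homeobox factor of the hair-forming cells, is disrupted.

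In the resting follicle of older mice, stem cells sit in the bulge and in the hair germ below it, and they feed the outer root sheath, which wraps the growing follicle. In the skin of young pups the follicles are still being built, and several adult bulge markers are expressed more broadly or outside the follicle. Sox9, Lhx2, Nfatc1, Tcf7l1, Runx1, Barx2 and Tbx1 encode transcription factors. Lgr5 and Lgr6 encode receptors for R-spondins, secreted proteins that amplify Wnt signals, and Cd34 encodes a surface sialomucin.

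Upstream sequences are shown for Lhx2 and Cd34, which passed the test once mutant replicate 3 was left out, and for Lgr6, whose groups did not overlap. Each is the 250 bases before the outermost RefSeq start in GRCm38.p6, written 5′ to 3′ on the gene's strand. They lie at chr2:38339031-38339280 (plus strand, Lhx2), chr1:135105277-135105526 (minus strand, Lgr6) and chr1:194938571-194938820 (plus strand, Cd34). Capitals mark the GC box GGGCGG on either strand, a motif bound by general promoter factors.
Lhx2: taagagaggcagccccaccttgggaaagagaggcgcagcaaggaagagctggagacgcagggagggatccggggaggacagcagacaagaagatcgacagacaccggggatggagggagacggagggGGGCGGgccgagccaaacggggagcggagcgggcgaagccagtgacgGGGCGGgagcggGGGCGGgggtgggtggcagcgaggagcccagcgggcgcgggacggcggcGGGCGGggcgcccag
Lgr6: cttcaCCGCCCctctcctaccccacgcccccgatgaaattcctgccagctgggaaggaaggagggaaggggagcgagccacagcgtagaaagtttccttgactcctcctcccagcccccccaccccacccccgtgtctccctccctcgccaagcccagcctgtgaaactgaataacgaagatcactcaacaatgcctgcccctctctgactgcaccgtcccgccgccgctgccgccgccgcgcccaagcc
Cd34: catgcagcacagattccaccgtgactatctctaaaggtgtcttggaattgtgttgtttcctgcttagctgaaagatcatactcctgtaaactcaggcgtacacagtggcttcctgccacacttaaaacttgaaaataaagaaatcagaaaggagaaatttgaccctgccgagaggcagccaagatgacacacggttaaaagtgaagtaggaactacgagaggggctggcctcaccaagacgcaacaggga
The Lhx2 window held 4 GC boxes and was 72.8% G or C. The Lgr6 window held 1 and was 65.2% G or C, and the Cd34 window held 0 at 46.4%. Over 32851 windows of the same length the median was 52.4%, and 32.7% held a GC box.

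RefSeq windows were found for 6 of the 10 genes, 9 windows in all, with more than 1 start for Lhx2, Runx1 and Tbx1. Sox9, Nfatc1, Lgr5 and Barx2 had no entry. None of the 9 windows (0) held a site of the form reported for human HOXC13, searched on both strands as TTAATN or TTTATN followed by a pair of purines. Such a site stood in 17.2% of all windows. The TCF/LEF form, CTTTG followed by a pair of bases that are each A or T, was also found in 0 of the 9, against 14.8% of all windows. The homeodomain core TAATTA, which can overlap the HOXC13 form, was in 0 of the 9 and in 4.84% of all windows. These are letter matches within these windows only.

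One mutant array, replicate 3, differed from the other mutants over the whole array, which bears on every value below. Over probe sets it correlated at 0.989 with mutant replicate 1, against 0.997 between mutant replicates 1 and 2. The Hoxc13 probe set read 9.63, 9.81 and 9.83 in wild type and 8.95, 8.75 and 9.74 in mutant skin, and the sources used here do not say where its probes lie relative to the disrupted part. The hair shaft keratin markers were nevertheless as low in mutant replicate 3 (list mean 5.44) as in the other mutant arrays (5.78 and 5.96), against 11.41 to 11.78 in wild type. Of 10 outer root sheath and basal layer markers 9 were measured, and their list mean was 11.22 to 11.36 in wild type. All arrays carried Xist (11.15 to 11.67) and low Y-linked probe sets (2.98 to 4.89), although the animals are labelled male.

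None of the 10 regulators passed the limma test with all 6 arrays (0 of 10, against 2.08% of all 16331 probe sets, 0.478% higher and 1.6% lower, adjusted p from 0.195 upwards), and 4 of 10 had an unadjusted p under 0.05, against 14.4% of all probe sets. Without mutant replicate 3, 3 of the 10 were higher in mutant skin and 0 lower, namely Lhx2, Lgr5 and Cd34. In that fit 14.2% of all probe sets passed, 7.95% higher and 6.23% lower in mutant skin. The mutant mean lay above the wild type mean in 10 of 10 genes, as it did in 57.6% of all probe sets. The median log2 difference of the 10 was 0.205, against 0.0247 over all probe sets. The spread behind these differences was also larger, with a median standard error of 0.118 against 0.0914. The mean levels of all 10 lay above the lower quartile of probe sets (5.50), but no detection calls were used.

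**Figure D1:**
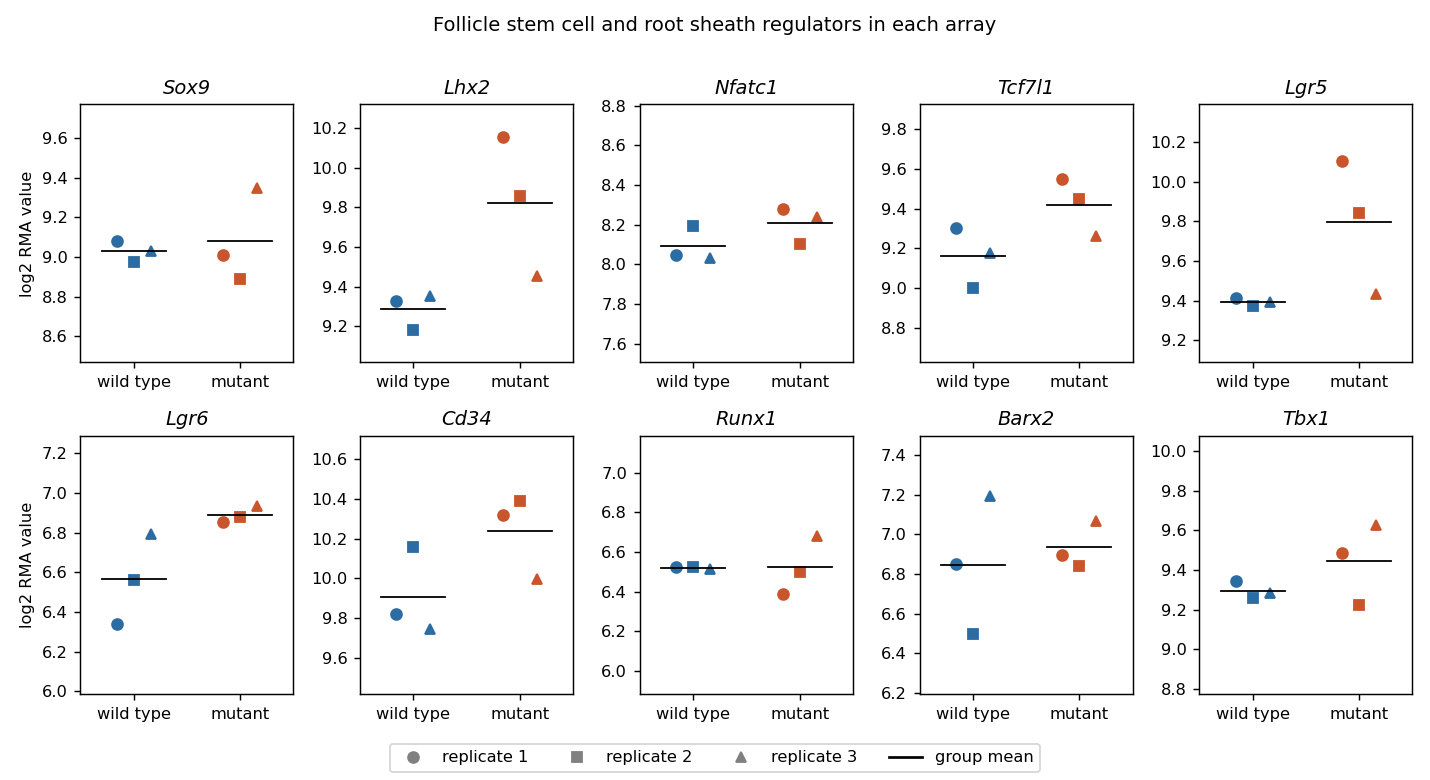
The log2 RMA value of each of the 10 regulators is plotted for each of the 3 wild type and 3 mutant arrays, with symbols for the replicate number and a bar for the group mean; every panel spans the same log2 range. Lhx2, Lgr5, Cd34 and Tcf7l1 have their lowest mutant value in replicate 3, and Lhx2, Lgr5 and Lgr6 show no overlap between the groups.

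Lhx2, a LIM homeodomain factor that keeps bulge and germ cells in their stem cell state, had the largest difference of the set. It read 9.33, 9.18 and 9.35 in wild type skin and 10.16, 9.86 and 9.45 in mutant skin. The groups did not overlap, but mutant replicate 3 lay just above the highest wild type array. The difference was 0.535 (SE 0.165, 95% interval 0.149 to 0.921), a 1.45-fold higher level that did not pass limma's test (adjusted p = 0.195). Dropping mutant replicate 3 gave 0.72 (SE 0.10, adjusted p = 0.00500), a 1.65-fold change.

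Lgr5, the R-spondin receptor of the hair germ and lower outer root sheath, had its mutant arrays in the same order as Lhx2. It read 9.41, 9.37 and 9.39 in wild type and 10.10, 9.84 and 9.44 in mutant skin. The wild type arrays were almost level (SD 0.02), whereas the mutant arrays were spread (SD 0.34), with replicate 3 only 0.041 above the wild type mean. The difference of 0.40 (SE 0.155, 95% interval 0.039 to 0.761) did not pass with limma (adjusted p = 0.299). With mutant replicate 3 dropped it was 0.58 (SE 0.089, adjusted p = 0.00637), or 1.49-fold, and without mutant replicate 1 it was 0.245.

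Lgr6, the related receptor of the isthmus above the bulge, had mutant arrays that lay close together. It read 6.34, 6.56 and 6.79 in wild type and 6.85, 6.88 and 6.94 in mutant skin. Here the wild type arrays were the spread ones (SD 0.23 against 0.042), and the groups did not overlap. The difference of 0.33 (SE 0.116, 95% interval 0.056 to 0.595) did not pass limma's test with all arrays (adjusted p = 0.255) or without mutant replicate 3 (0.30, adjusted p = 0.15). It rested in part on the wild type arrays, at 0.213 without wild type replicate 1 and 0.44 without wild type replicate 3. In all, 3 of the 10 regulators had groups without overlap, each higher in mutant skin, against 20.3% of all probe sets in either direction and 12.5% in that one.

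Cd34, which marks adult bulge cells and also vessels, blood progenitors and stromal cells, read 9.82, 10.16 and 9.74 in wild type and 10.32, 10.39 and 9.996 in mutant skin. Wild type replicate 2 lay above mutant replicate 3, so the groups overlapped. The difference was 0.33 (SE 0.142, 95% interval -0.004 to 0.66, limma adjusted p = 0.350), and 0.45 without mutant replicate 3 (SE 0.122, adjusted p = 0.0488). Of the 10 endothelial markers, 6 had a higher mutant mean, near the 57.6% of all probe sets, and 0 passed with all arrays (2.08%). Without mutant replicate 3, 1 was higher, near the 7.95% of all probe sets in that fit. It was Vwf (0.67, limma adjusted p = 0.00186), named after its value was seen. The endothelial list mean was 7.495 to 7.766 in wild type and 7.755, 7.835 and 7.541 in mutant replicates 1, 2 and 3, so it was also lowest among mutant arrays in replicate 3. Its part in the Cd34 values was not tested. In whole skin, a change in the number of cells that carry a transcript and a change in RNA per cell cannot be told apart.

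Tcf7l1, a TCF factor that mainly represses Wnt targets in bulge cells, read 9.30, 9.002 and 9.18 in wild type and 9.55, 9.45 and 9.26 in mutant skin. Only mutant replicate 3 fell within the wild type range. The difference of 0.26 (SE 0.108, 95% interval 0.008 to 0.51) did not pass with limma (adjusted p = 0.334), nor did the 0.34 found without that array (adjusted p = 0.0610).

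**Figure D2:**
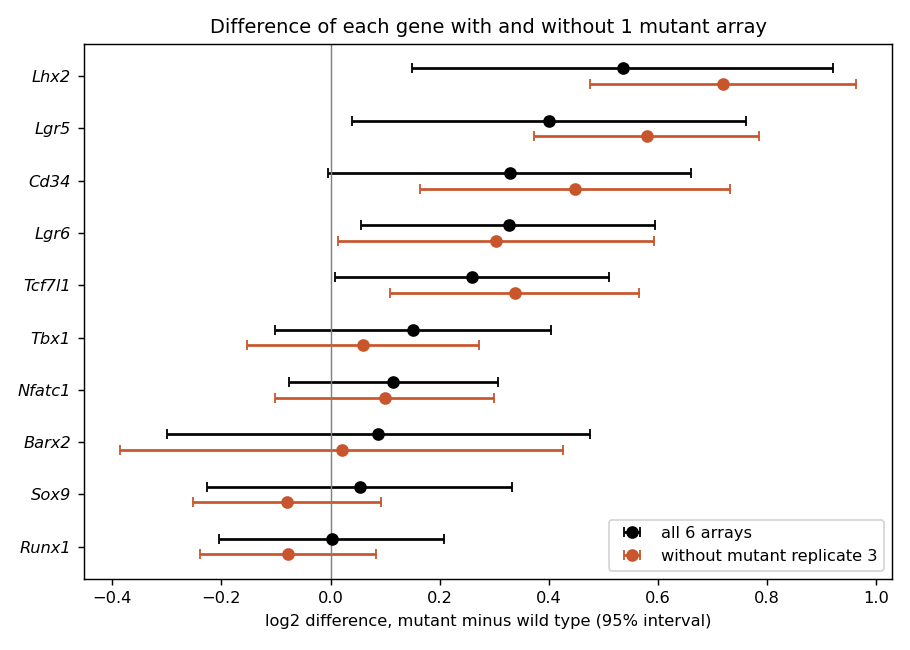
Points are the log2 difference of each gene, mutant minus wild type, and bars its 95% interval from limma, with all 6 arrays (black) and without mutant replicate 3 (orange). Leaving out that array raised Lhx2 from 0.535 to 0.72 and Lgr5 from 0.40 to 0.58 and narrowed their intervals.

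Sox9, the HMG box factor needed to set aside follicle stem cells and to form the outer root sheath, was near level between the groups. It read 9.08, 8.98 and 9.03 in wild type and 9.01, 8.89 and 9.35 in mutant skin. Of the mutant arrays, replicate 1 was inside the range of the wild type arrays, replicate 2 below it and replicate 3 above it. The difference of 0.053 (95% interval -0.226 to 0.333, limma adjusted p = 0.886) became -0.08 without mutant replicate 3 (95% interval -0.252 to 0.093). Sox9 did not pass in either fit. Its interval with all arrays ended below the 0.535 measured for Lhx2 but overlapped the Lhx2 interval (0.149 to 0.921). No test compared the genes.

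Tbx1, a T-box factor linked to the self-renewal of bulge cells, read 9.35, 9.26 and 9.28 in wild type and 9.49, 9.22 and 9.63 in mutant skin. Mutant replicate 2 was below the wild type arrays and the other mutant arrays above them. The difference was 0.151 (95% interval -0.102 to 0.403, limma adjusted p = 0.573). Dropping mutant replicate 3 gave 0.059 and dropping mutant replicate 2 gave 0.263.

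Runx1, a runt domain factor that helps to activate follicle stem cells and is also central to blood formation, read 6.53, 6.53 and 6.51 in wild type and 6.39, 6.50 and 6.68 in mutant skin. The mutant arrays lay on either side of a tight wild type group, and the difference was 0.002 (95% interval -0.204 to 0.207, limma adjusted p = 0.996). The blood cell marker list had a mean of 7.98 to 8.004 in wild type and 8.07, 8.35 and 8.20 in mutant replicates 1, 2 and 3. Of its 9 markers 0 passed the test with all arrays, against 2.08% of all probe sets. Without mutant replicate 3, 3 were higher and 1 lower, against 7.95% and 6.23% of all probe sets.

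Nfatc1, the calcineurin-dependent factor that holds bulge cells in quiescence, read 8.05, 8.19 and 8.03 in wild type and 8.28, 8.10 and 8.24 in mutant skin. Mutant replicate 2 fell within the wild type range and the difference was 0.115 (95% interval -0.076 to 0.306, limma adjusted p = 0.570). Barx2, a homeobox gene expressed in the follicle epithelium, read 6.85, 6.50 and 7.19 in wild type and 6.90, 6.84 and 7.07 in mutant skin. All mutant values of Barx2 lay within the wild type range, and its difference of 0.087 (95% interval -0.300 to 0.475, limma adjusted p = 0.859) went with a wild type SD of 0.347, the largest among the 10 genes.

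The regulators were divided by whether mutant replicate 3 lay below or above the mean of mutant replicates 1 and 2. This division was made after the values were seen and was not tested, and it does not show separate kinds. Lhx2, Lgr5, Cd34 and Tcf7l1 (4 genes) were lowest there among the mutant arrays, at -0.552, -0.538, -0.359 and -0.234 relative to the mean of mutant replicates 1 and 2. The other 6 lay above that mean, Sox9 by 0.399, Tbx1 by 0.274, Runx1 by 0.238 and Barx2 by 0.199. Lgr6 and Nfatc1 did so by only 0.069 and 0.048. Among the 6, 5 had their highest mutant value in replicate 3. The dermal papilla marker list, for the mesenchymal cells at the follicle base, had a mean of 7.78 to 7.84 in wild type and 8.26, 8.20 and 7.80 in mutant replicates 1, 2 and 3. None of its 9 markers passed with all arrays (0), and without mutant replicate 3, 6 were higher and 1 lower. Over all probe sets 7.95% were higher and 6.23% lower in that fit, and 2.08% passed with all arrays, which applies to each list below. The outer root sheath and basal keratinocyte list went the other way, at 11.25, 11.29 and 11.78. Of its 9 markers, 8 had a higher value in replicate 3 than the average of mutants 1 and 2. This was not particular to that list, as 9 of 9 melanocyte, 8 of 8 inner root sheath and 5 of 6 sebaceous gland markers were also higher there. In the other marker lists 0 of 10 (skeletal muscle) to 4 of 9 (blood cell) were, and the share of all probe sets was not counted. Of the 9 outer root sheath and basal keratinocyte markers 0 passed with all arrays. Without mutant replicate 3, 1 was higher and 1 lower, near the shares of all probe sets. The dermal fibroblast list (11.69 to 11.82 in wild type) read 11.93, 12.01 and 11.71 and the skeletal muscle list (9.64 to 10.77) 11.28, 10.80 and 10.35. Of 9 fibroblast markers 0 passed with all arrays and 3 were higher without mutant replicate 3. All 10 muscle markers had a higher mutant mean, as did 57.6% of all probe sets. Of the 10, Myh2 passed with all arrays (1.23, limma adjusted p = 0.0195) and 5 were higher without mutant replicate 3. The part of these cell types in the values of the regulators was not tested.

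**Figure D3:**
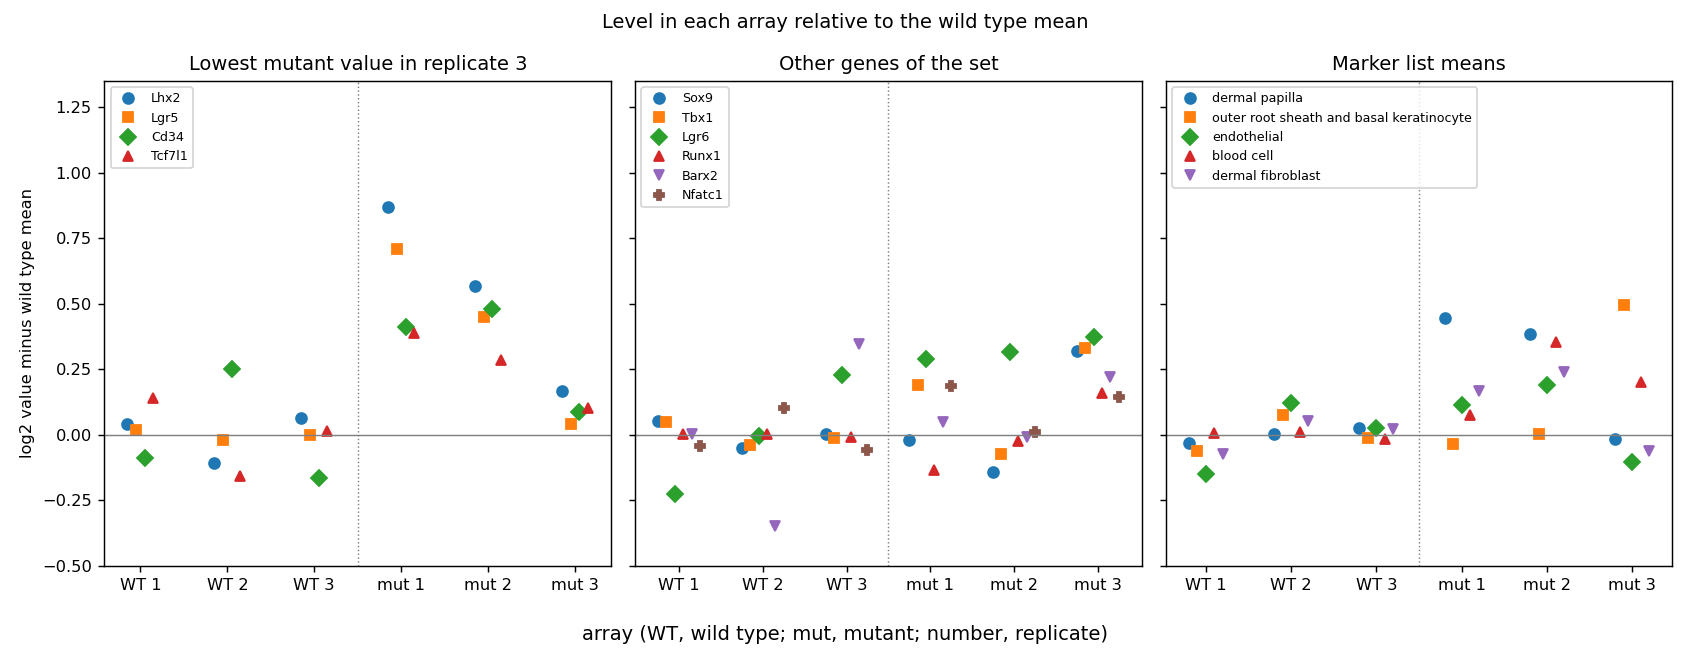
Each point is a log2 value minus the mean of the 3 wild type arrays, with array on the horizontal axis. Shown are 4 regulators lowest among mutant arrays in replicate 3 (left), the other 6 (middle) and the means of 5 of the 12 marker lists (right). In mutant replicates 1, 2 and 3 Lhx2 stands at 0.869, 0.569 and 0.167 and the dermal papilla list at 0.444, 0.385 and -0.015, while the outer root sheath list stands at -0.034, 0.005 and 0.495.

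The 3 named genes whose values over the 6 arrays were nearest to those of Lhx2, each gene centred on its own mean, were Arg2, Gli2 and Dusp26. Their root mean square difference from Lhx2 was 0.053, 0.053 and 0.063, against a deviation of 0.34 for Lhx2 around its own mean. Gli2, a transcription factor of the Hedgehog pathway, read 8.64, 8.38 and 8.63 in wild type and 9.38, 9.18 and 8.65 in mutant skin. It did not pass with all arrays (0.52, limma adjusted p = 0.248) and was 0.73 higher without mutant replicate 3 (adjusted p = 0.0046). Arg2, a mitochondrial arginase, and Dusp26, a phosphatase, differed by 0.545 and 0.56 with all arrays, neither past the test (limma adjusted p = 0.149 and 0.125). Like Gli2, they passed without mutant replicate 3, at 0.72 (limma adjusted p = 0.0018) and 0.71 (limma adjusted p = 0.00604). Because these 3 genes were picked for their likeness to Lhx2 over the same 6 arrays, outcomes like those of Lhx2 followed from the choice. They are a description and add no support to the Lhx2 values.

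Of 23 measured bulge and junctional zone genes 1 rose, 0 fell and the other 22 did not pass. The gene that rose was Lrig1, a membrane protein that restrains growth factor receptors and marks stem cells of the junctional zone above the bulge. Lrig1 read 9.75, 9.72 and 9.75 in wild type and 10.28, 10.14 and 10.10 in mutant skin, so that mutant replicate 3 also lay above every wild type array. The increase was 0.43 (SE 0.075, limma adjusted p = 0.0342), and it no longer passed in any of the fits that dropped a wild type array or mutant replicate 1 or 2. The list median was 0.141, and the groups did not overlap in 7 of 23, each of them higher in mutant skin. Over all probe sets 20.3% did not overlap in either direction and 12.5% in that one. Once mutant replicate 3 was dropped, 4 of 23 were higher and 1 lower, where 7.95% of all probe sets were higher and 6.23% lower. Beside Lrig1 (0.47) these were, named after their values were seen, the integrin gene Itga6 (0.335), the transglutaminase gene Tgm5 (0.37) and the Wnt inhibitor gene Wif1 (0.34), and the matrix protein gene Tnc, which was lower (-0.37). In mutant replicate 3, by contrast, Tnc read 10.062, just above the wild type arrays (9.953 to 10.051). Wif1 read 9.30 there, within the wild type range (9.285 to 9.436). Wif1 is also on the dermal papilla list and Itga6 on the outer root sheath and basal keratinocyte list, so each is counted in both places.

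Of 8 measured genes on the list of outer root sheath and companion layer keratins 1 rose, Krt79, and 0 fell. Krt79 is expressed in the sebaceous duct and is on the sebaceous gland marker list too. Its rise can therefore not be read as one of the outer root sheath. Krt79 read 12.31, 12.28 and 12.27 in wild type and 12.72, 12.71 and 13.04 in mutant skin, an increase of 0.54 (SE 0.101, limma adjusted p = 0.0435). It too no longer passed in the fits that dropped any of those 5 arrays. In the fit without mutant replicate 3, Krt79 was higher and Krt75 lower (-0.44, limma adjusted p = 0.0083), where 7.95% of all probe sets were higher and 6.23% lower. Krt75 is a companion layer keratin, named here after its values were seen. In mutant replicate 3 itself Krt75 read 12.368, above the wild type arrays (11.997 to 12.068), and with all arrays its difference was -0.184. The list median was 0.139 with all arrays and -0.033 without mutant replicate 3.

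Of 9 measured genes on the list of LGR ligands and membrane partners 0 passed with all arrays. The smallest p was that of Lgr4, which is itself a receptor, the broadly expressed member of the family. Lgr4 read 10.99, 11.03 and 11.10 in wild type and 11.61, 11.44 and 11.35 in mutant skin, without overlap, a difference of 0.43 (SE 0.087, limma adjusted p = 0.0598). In the fit that dropped mutant replicate 3, 4 of 9 were higher (7.95% of all probe sets), Lgr4 (0.48) and, named after their values were seen, the ligand genes Rspo1 (0.66), Rspo2 (0.51) and Rspo3 (0.87). In mutant replicate 3 Rspo1 read 6.79 and Rspo3 7.66, both below the wild type arrays (6.95 to 7.13 and 7.73 to 8.05). Rspo3 is also on the dermal papilla list.

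Among 12 TCF and LEF factors and cofactors related to Tcf7l1, 1 fell and 0 rose. Tle4, a Groucho co-repressor that TCF factors recruit, read 7.64, 7.68 and 7.72 in wild type and 7.20, 7.17 and 7.35 in mutant skin. It fell by 0.44 (SE 0.077, limma adjusted p = 0.0345), with all mutant arrays below the wild type arrays, and this call also depended on each of those 5 arrays. The list median was 0.052, and with mutant replicate 3 dropped 1 gene of 12 was higher and 3 lower (7.95% and 6.23% of all probe sets). These were Tle2 (0.465) and, among the lower ones, Lef1 (-0.655), Tle3 (-0.50) and Tle4 (-0.495), of which all but Tle4 are named after their values were seen. In mutant replicate 3, by contrast, Tle3 read 8.92, above the wild type arrays (8.33 to 8.68).

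Relatives of the other regulators gave a single call. Of 14 SOX family genes besides Sox9, Sox21, a factor of the hair shaft cuticle, fell by 0.66 (SE 0.088, limma adjusted p = 0.0103), from 9.57, 9.78 and 9.72 to 9.10, 8.91 and 9.07, and 0 rose. The Sox21 call was lost without wild type replicates 2 or 3, and without mutant replicate 3 the list had 4 of 14 higher and 1 lower, beside 7.95% and 6.23% of all probe sets. The higher ones, named after their values were seen, were Sox2 (1.06), Sox18 (0.77), Sox11 (0.37) and Sox13 (0.34). Sox2 and Sox18 are known in the dermal papilla, and Sox18 is also on that marker list. Sox2 read 5.13, 5.02 and 5.26 in wild type and 6.41, 5.99 and 4.82 in mutant skin, so that mutant replicate 3 was the lowest array of all. Sox11 was also lowest there, at 4.823 against 5.027 to 5.159 in wild type. None of the 13 genes on the calcineurin and NFAT list, which also holds Cdk4 and Bmpr1a, passed (0). The smallest p there was at Nfatc4 (0.27, limma adjusted p = 0.135). Of 16 LIM homeobox genes and cofactors 0 passed, with the smallest p at Lmo4, a LIM-only factor (0.37, limma adjusted p = 0.0898). The same held for 0 of 5 RUNX genes and partners (Cbfb, the partner subunit of Runx1, 0.18), 0 of 10 T-box genes (Tbx15, 0.35) and 0 of 7 BarH-like and related homeobox genes (Msx2, -0.36). Of the T-box and LIM lists, 8 of 10 and 9 of 16 genes had a mean level below the lower quartile of probe sets. With mutant replicate 3 dropped, the calls in these 5 lists were 2 of 13 higher for calcineurin and NFAT, 2 of 16 higher for LIM, 1 of 5 higher for RUNX, 2 of 10 higher for T-box and 3 of 7 lower for BarH-like and related genes. In that fit 7.95% of all probe sets were higher and 6.23% lower, so several of these small counts lie near the share of all probe sets. Apart from Nfatc4, Lmo4, Tbx15 and Msx2 they are named after their values were seen, and they were Rcan2 (0.45), Lmo1 (0.76), Runx1t1 (0.565), Tbx18 (0.45), Dlx3 (-0.43) and Barx1 (-0.34). In mutant replicate 3, by contrast, Dlx3 read 10.268 and Barx1 5.949, above the wild type arrays (9.56 to 9.884 and 5.659 to 5.844). Runx1t1 (6.475) and Rcan2 (4.651) read below the wild type arrays there (6.725 to 7.045 and 4.654 to 5.038).

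**Figure D4:**
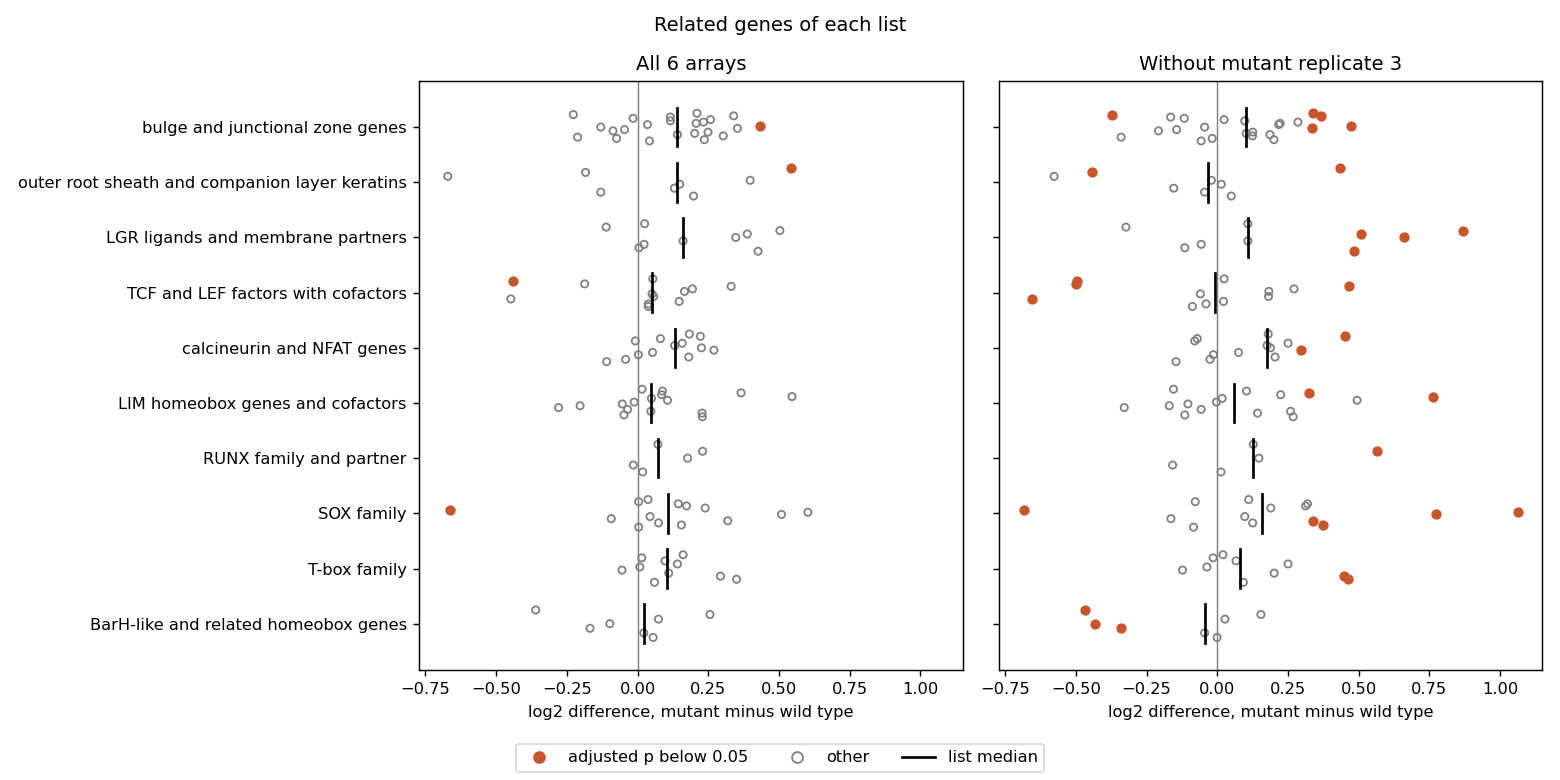
Each circle is a gene of a related list at its log2 difference, mutant minus wild type, with all 6 arrays (left) and without mutant replicate 3 (right); filled circles passed at an adjusted p below 0.05 and black bars are list medians. With all arrays 4 circles are filled, Lrig1, Krt79, Tle4 and Sox21.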

How the data were processed

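Total RNA of dissected skin was amplified from its 3′ end, labelled with biotin and read on Affymetrix arrays, per the labels' protocols. The values deposited by the authors are log2 and come from RMA, per the submitters' processing notes, while the RMA version is not stated in those notes. Because RMA makes the distributions of arrays alike, total RNA per sample is lost and small signals are compressed. Depth does not apply to arrays, and 3 arrays per group limit the precision. No labels say how the animals were related, so p-values cover only the spread between these 6 arrays, which may be partly technical.

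Of 16395 probe sets 64 controls were left out and 16331 tested, of which 15644 had 1 gene symbol, 0 several and 687 none in the platform annotation. Of the named, 15617 matched a RefSeq gene of GRCm38.p6 by Entrez number. Groups were taken from sample titles. The fit used limma 3.58.1 in R 4.3.3 (lmFit, eBayes, two-sided, no block or filter, Benjamini-Hochberg over all probe sets, threshold 0.05), and intervals are 95% with 7.53 degrees of freedom. On simulated data with 16331 probe sets it recovered 49.3% of changes of log2 size 0.5 and 88.3% of size 1. Of its calls there, 5.07% were false. In those data a change of log2 size 0.5 was thus missed about as often as it was found. The 10 regulators had a median standard error of 0.118, against 0.0914 over all probe sets. The share recovered at the spread of the regulators was not tested.

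The regulators and the 10 related lists and 12 marker lists were chosen with earlier results of these data known, and so support nothing by their choice. Named were Hoxc13, the 10 regulators, up to 3 called genes per related list (otherwise the one with the smallest p) and the 3 nearest in pattern to the regulator with the largest difference. Alternatives were a filter on low levels, repeated quantile normalisation, centring, array weights, a robust prior with a trend, an unmoderated test, a block for replicate number and dropping each array. Promoter windows came from RefSeq (250 bases before a start). Figures used Python 3.11.15 and matplotlib 3.10.9.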

Additional observations from a re-analysis of the deposited data

How the results depend on the processing

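With a low-level filter, repeated quantile normalisation, centring, an intensity trend, the replicate block or no variance moderation, 0 of the 10 regulators passed, as with limma's standard fit, and no direction changed. Array weights, which gave mutant replicate 3 a weight of 0.234, passed 2 of the 10, Lhx2 (0.677) and Lgr5 (0.54). They turned Sox9 to -0.049 and Runx1 to -0.06, and called 1880 of all 16331 probe sets. Of the related lists they called 6 of 23 bulge and junctional genes, 4 of 9 LGR partners, 3 of 12 TCF and LEF and 4 of 14 SOX genes. The others were 1 of 13 calcineurin and NFAT, 2 of 16 LIM, 2 of 10 T-box and 1 of 7 BarH-like genes. The keratin list stayed at 1 of 8 and the RUNX list at 0 of 5. The intensity trend called 1 LGR partner. The replicate block called 197 probe sets and no variance moderation 84, and each left 0 calls in the bulge, keratin, TCF and LEF and SOX lists. No label says that equal replicate numbers belong together. Deviations of equal numbers correlated at 0.036, -0.119 and -0.087, and those of unequal numbers at -0.121 to 0.237. With 3 arrays per group these values cannot decide whether samples were paired.

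Leaving out 1 array at a time gave 151 to 2316 called probe sets and 0 to 3 called regulators, with 0 except without mutant replicate 3. The differences ranged from 0.368 to 0.719 for Lhx2, 0.245 to 0.579 for Lgr5, 0.246 to 0.453 for Cd34, 0.213 to 0.44 for Lgr6, 0.179 to 0.337 for Tcf7l1, 0.059 to 0.263 for Tbx1, 0.079 to 0.166 for Nfatc1, -0.08 to 0.15 for Sox9, -0.078 to 0.069 for Runx1 and -0.087 to 0.26 for Barx2. Sox9 was reversed without mutant replicate 3 (-0.08), Runx1 without mutant replicate 3 (-0.078) or wild type replicate 3 (-0.003), and Barx2 without wild type replicate 2 (-0.087). Called genes ranged from 0 to 5 in the bulge and SOX lists, 0 to 4 in the LGR and TCF lists, 0 to 3 in the BarH-like list, 0 to 2 in the keratin, calcineurin, LIM and T-box lists and 0 to 1 in the RUNX list, the highest each without mutant replicate 3. The cause was not tested. No detection calls limit values near background.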
